A study of Mus musculus with 17 samples.

Results

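The germinal centre (GC) B cells described here came from the untreated mice of the first of the study's experiments, and were compared between day 10 and day 7 after immunization over all genes. Members were the cells of that experiment's pool that had at least 200 genes detected, fewer than 10% mitochondrial UMIs (unique molecular identifiers, each standing for 1 captured mRNA molecule) and a hashtag antibody that marked them as coming from 1 of 3 mice taken at day 7 or 1 of 3 untreated mice taken at day 10. They comprised 5107 cells of 6 mice, out of 48458 cell barcodes in the 3 pools read. Libraries were 10X Genomics 5′ libraries of sorted lymph node GC B cells.

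The recipients of every group were CD45.1/1 mice that had been primed with ovalbumin (OVA) in alum, received CD45.2 B cells with the B1-8hi heavy chain, which binds the hapten NP when paired with a lambda light chain, and were immunized on the next day in the footpad with NP-OVA in alum. A minority of the transferred cells expressed DEC-205, the product of Ly75, together with H2B-mCherry under a doxycycline-sensitive promoter (Col1a1 tetO-H2B-mCherry, with tTA driven by Vav, which is active throughout blood cells), and the rest were Ly75-/-. Mice of either sex on the C57BL/6J background, 5 to 12 weeks old, were used in the study. Both groups lacked the anti-DEC-OVA antibody, which was given at day 7 only to the treated mice of the same pool, and the age, sex and doxycycline status of each mouse are not in the list of mice. Division tracking included doxycycline after day 7, so that time and doxycycline cannot be told apart here. These features of the model come from the study's methods. The cells of all 6 mice were sequenced in 1 pool, and each mouse is 1 replicate.

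GC B cells alternate between a dark zone, where they divide and mutate their antibody genes, and a light zone, where they take up antigen and compete for help from T cells. Cells that leave become plasma cells or memory B cells. Positioning within the follicle depends on chemoattractant receptors, on the proteins that limit their signals and on the actin cytoskeleton. Between day 7 and day 10 after a first immunization the GC passes from early expansion to a mature structure with ongoing selection.

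The mice contributed between 211 and 1205 cells and between 349784 and 2557135 UMIs each, with medians of 1414 to 1706 UMIs and 846 to 957 genes per cell. Day 10 mouse 3 was the shallowest on all of these measures. Cd79a, a subunit of the B cell receptor, was detected in 92.9% to 97.3% of cells of each mouse, and the 10 GC B cell markers together made up 1998 to 2095 CPM (counts in 1000000 UMIs) at day 7 and 2093 to 2386 at day 10, so that the cells carried the transcripts their label calls for. Among defining markers of other cells, Sdc1 of plasma cells had no more than 1 UMI in any mouse, and Cd4, C1qa, S100a8, Itgax, Hba-a1 and Col1a1 had none. Other plasma cell markers were detected: of the 8 on that list, 0, 2 and 3 were at 0 in the day 7 mice and 3, 4 and 4 in the day 10 mice. Some genes of those marker lists were found in many cells of every mouse, among them Jchain, the joining chain of secreted antibodies, in 58.3% to 69.7% of cells, Cst3 in 33.2% to 47.2% and Lck in 14.1% to 16.7%. Of the 14 myeloid markers 7 to 11 were at 0 in each mouse, and Cd68 of macrophages had 10, 14 and 16 UMIs in the day 7 mice and 9, 11 and 2 in the day 10 mice. Lyz2, a lysozyme gene of myeloid cells, had 133 UMIs in 3 cells of day 10 mouse 2 and no more than 1 UMI in any other mouse, and the same mouse had 14 UMIs of Tyrobp and 10 of Fcer1g, signalling adaptors of myeloid cells, where the others had up to 3 and up to 4. Of the 11 T cell markers 5 to 8 were at 0 in each mouse, Cd3d had 0 to 7 UMIs, and Cd3e (1 UMI) and Cd3g (3 UMIs) were found in day 10 mouse 2 alone. No cell barcode was shared with the 2 time-course pools used for comparison below.

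Some features of the cells are given first because they bear on every comparison of RNA summed per mouse. The 4 Y-linked genes of the fixed list (Eif2s3y, Ddx3y, Kdm5d and Uty) summed to 10.2, 17.6 and 30.4 CPM of all UMIs in the 3 day 7 mice and to 60.4, 52.9 and 62.9 in the 3 day 10 mice. A Y-linked UMI was found in 2.07%, 2.89% and 5.47% of cells at day 7 and in 9.71%, 7.95% and 8.53% at day 10. The groups did not overlap, and the part of the cells' sex in the other differences was not tested.

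Light chains, read from the assembled productive contigs of cells with at least 3 light-chain UMIs, were mostly lambda in every mouse. The share of lambda cells was 96.8% (449 of 464 cells, exact 95% interval 94.7 to 98.2), 96.1% and 93.8% in the day 7 mice. In the day 10 mice it was 85.2% (132 of 155 cells, 78.6 to 90.4), 86.8% and 83.1% (49 of 59 cells, 71.0 to 91.6). All 3 day 10 mice lay below all 3 day 7 mice, and the means were 95.6% ± 1.58 and 85% ± 1.9 (SD, n = 3 mice each), a difference of -10.5 percentage points with an exact two-sided permutation p = 0.1, the smallest that 3 against 3 mice allow. The intervals cover counting error only. A light chain could be read in 38.5%, 36.3% and 42.1% of cells at day 7 and in 30.1%, 34.1% and 28.0% at day 10. This share did not overlap between the days either, and its part in the lambda difference was not tested.

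Cell-cycle phases called from all UMIs of a cell overlapped between the days. The G0-G1 share was 54.0%, 60.2% and 52.0% at day 7 and 48.3%, 47.8% and 52.6% at day 10. The mean difference was -5.84 percentage points for G0-G1 (exact permutation p = 0.2), 3.2 for S (p = 0.3) and 2.63 for G2-M (p = 0.2). With each cell thinned to 971 UMIs, which left 2940 day 7 and 1659 day 10 cells, the G0-G1 shares were 52.5%, 57.6% and 49.19% against 47.1%, 44.3% and 49.16%. They then did not overlap, by a narrow margin, and the difference was -6.27 (exact permutation p = 0.1), again the smallest p that the design allows. The 8 B cell markers summed to 8172 to 8606 CPM of all UMIs at day 7 and 7827 to 8500 at day 10, and the 9 naive and memory B cell markers to 510 to 559 and 518 to 575. The 14 myeloid markers summed to 303 to 385 CPM at day 7 and 240 to 313 at day 10, with Cst3 at 296 to 375 and 232 to 238 of these, and in day 10 mouse 2, which had the 313, Lyz2 at 58.1, Tyrobp at 6.12 and Fcer1g at 4.37. The T cell markers summed to 79.9 to 98.2 and 93.0 to 120, mostly Lck, and the stromal markers to 50.6 to 53.6 and 27.8 to 48.1, mostly Pecam1. The part of these in the differences below was not tested. In RNA summed per mouse, fewer cells of a type and less RNA per cell cannot be told apart.

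**Figure D1:**
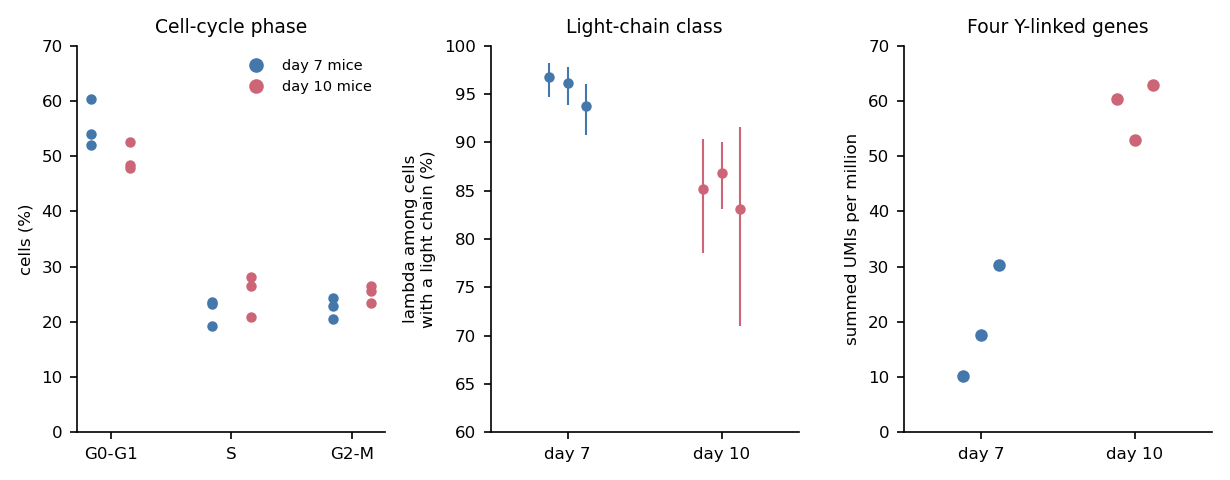
Share of cells in each cell-cycle phase (percent), share of cells with mostly lambda light-chain UMIs (percent) and summed UMIs of the 4 Y-linked genes (CPM of all UMIs), with 1 point per mouse for 3 mice at day 7 and 3 at day 10. The phase shares, called from all UMIs of a cell, overlap, whereas the lambda shares (93.8% to 96.8% against 83.1% to 86.8%) and the Y-linked sums (10.2 to 30.4 against 52.9 to 62.9) do not.

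Over all genes, few passed the comparison of day 10 with day 7, a count that depends on the number of mice and on depth. UMIs were summed per mouse and compared with edgeR's quasi-likelihood test, with p-values adjusted over all 8768 genes by the Benjamini-Hochberg method and a threshold of 0.05, and levels of genes are given as CPM after TMM scaling. In total 101 genes passed, 1.15% of the genes tested, of which 52 rose at day 10 (0.593%) and 49 fell (0.559%). The median log2 fold change of all genes was 0.00 to 2 decimals, a value that the TMM scaling largely sets. For 88 of the 101 genes the mice of the groups did not overlap, and for 13 they did, whereas among all genes 1137 (13%) had all 3 mice of one day above all 3 of the other. At an unadjusted p under 0.05, 783 genes were counted.

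The number of calls depended on single mice. It was 25 without day 10 mouse 2, which held most of the day 10 UMIs, 64 without day 10 mouse 1, 128 without day 10 mouse 3, the shallowest, and 70 without day 7 mouse 1. All 101 genes had the same direction in each of these fits. That was largely set in advance, since the genes were chosen on these mice and 88 of them had no overlap between the days. Calls of named genes that were lost without a mouse are given beside them. With DESeq2, which estimates the spread of each gene in another way, 24 genes passed, all of them among the 101.

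The 12 most increased genes that did not overlap and had an average log2 CPM above 4 included the GC regulator Rgs13, the surface enzyme Nt5e, the scaffold Akap12 and several metabolic enzymes. Rgs13, a GTPase-activating protein that limits chemokine receptor signals in GC B cells (chr1:144014392-144053110, GRCm39, minus strand), was at 55.3, 58.8 and 76.2 CPM in the day 7 mice and 105, 129 and 137 CPM in the day 10 mice. Every day 10 mouse lay above every day 7 mouse, and the log2 fold change was 0.96 ± 0.12 (SE, adjusted p = 1.67e-08). The share of cells with an Rgs13 UMI was 9.05%, 9.11% and 13.1% at day 7 and 16.1%, 19.6% and 18% at day 10. The call held in all 18 alternatives in which the gene could be tested, with log2 fold changes from 0.86 to 1.57.

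Nt5e, which encodes CD73, the ectoenzyme that makes adenosine and marks memory precursors and some GC B cells (chr9:88209089-88254146, GRCm39, plus strand), was at 12.8, 14.0 and 16 CPM at day 7 and 20.2, 30.8 and 56.9 CPM at day 10. The day 10 mice were all higher but spread over a wider range than the day 7 mice. The log2 fold change was 1.10 ± 0.22 (adjusted p = 0.000933), and a UMI was found in 2.41%, 2.54% and 2.96% of cells at day 7 and 3.88%, 5.45% and 8.06% at day 10. Without day 10 mouse 2 its log2 fold change was 1.09 and the gene no longer passed (0.174). It also did not pass in lambda cells (0.96, adjusted p = 0.315), in G0-G1 cells (1.07, 0.2), in cells with no UMI of other cells' markers (1.19, 0.116), with all 9 mice of the pool in 1 fit (0.0625) or with DESeq2 (0.0699).

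Akap12, a scaffold that binds protein kinase A, was at 10.8, 10.6 and 15.5 CPM at day 7 and 26.0, 26.9 and 39.8 at day 10, a log2 fold change of 1.21 ± 0.23 (adjusted p = 0.00033). Pkib, an inhibitor of the same kinase, was at 37.6, 37.1 and 42.1 CPM against 54.8, 67.8 and 65.4, and its log2 fold change was 0.71 ± 0.14 (adjusted p = 0.000696). Neither gene overlapped between the days. Akap12 did not pass with UMIs thinned to the shallowest mouse (1.55, adjusted p = 0.063), in lambda cells (1.26, 0.235), in G0-G1 cells (1.07, 0.207) or in cells with no UMI of other cells' markers (0.93, 0.36). Lmo7, a LIM domain protein of the cytoskeleton, rose from 26.0, 23.1 and 29.9 CPM to 48.1, 57.3 and 42.7 CPM (log2 fold change 1.01 ± 0.16, adjusted p = 7.39e-06). Trio, a guanine nucleotide exchange factor, had the largest adjusted p of the 12, at 14.4, 15.4 and 15.5 CPM against 22.1, 27.4 and 28.5 (0.78 ± 0.22, adjusted p = 0.0467). With day 10 mouse 2 left out the values were 0.57 for Pkib (adjusted p = 0.329), 0.83 for Lmo7 (0.0986) and 0.66 for Trio (0.683), and Trio also lost its call without each other mouse except day 10 mouse 3, at 0.75 to 0.87 (adjusted p = 0.0696 to 0.18).

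Gstt2, Lipc and Ephx1 are enzymes among the 12. Gstt2, a glutathione S-transferase, was at 59.3, 44.8 and 58.6 CPM at day 7 and 103, 99.9 and 114 CPM at day 10 (log2 fold change 0.92 ± 0.12, adjusted p = 1.56e-07). Lipc, the hepatic lipase, was at 65.7, 52.5 and 64.0 CPM against 114, 103 and 117 CPM (0.83 ± 0.12, adjusted p = 9.01e-07). Ephx1, the microsomal epoxide hydrolase, was at 14.4, 11.1 and 9.06 CPM against 26.9, 25.6 and 31.3 CPM (1.17 ± 0.23, adjusted p = 0.000638). With UMIs thinned to the shallowest mouse Lipc was at 0.58 and did not pass (adjusted p = 0.448). In all 3 genes the replicates of each day lay close together, with the lowest day 10 mouse well above the highest day 7 mouse. Ntng2, a netrin-related surface protein, rose from 16, 22.6 and 17.6 CPM to 34.6, 33.0 and 42.7 CPM (0.89 ± 0.19, adjusted p = 0.0027). Leaving out day 10 mouse 2, Ephx1 was at 1.25 (adjusted p = 0.0548) and Ntng2 at 0.98 (0.0974), and Ntng2 was at 0.77 (0.0526) without day 7 mouse 1.

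Eif2s3y, a Y-linked subunit of the translation initiation factor eIF2, was at 5.21, 7.22 and 13.3 CPM at day 7 and 26.9, 28.7 and 28.5 CPM at day 10 (log2 fold change 1.76 ± 0.25, adjusted p = 8.55e-07), and at 1.18 (0.242) in cells with no UMI of other cells' markers. Ddx3y, a Y-linked RNA helicase, was at 2.00, 3.85 and 8.0 CPM against 19.2, 9.56 and 17.1 CPM (1.58 ± 0.37, adjusted p = 0.00715), and at 1.16 (0.184) without day 7 mouse 1 and 1.28 (0.302) without day 10 mouse 1. These were 2 of the 4 Y-linked genes tested, all 4 of which were higher in every day 10 mouse than in any day 7 mouse.

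**Figure D2:**
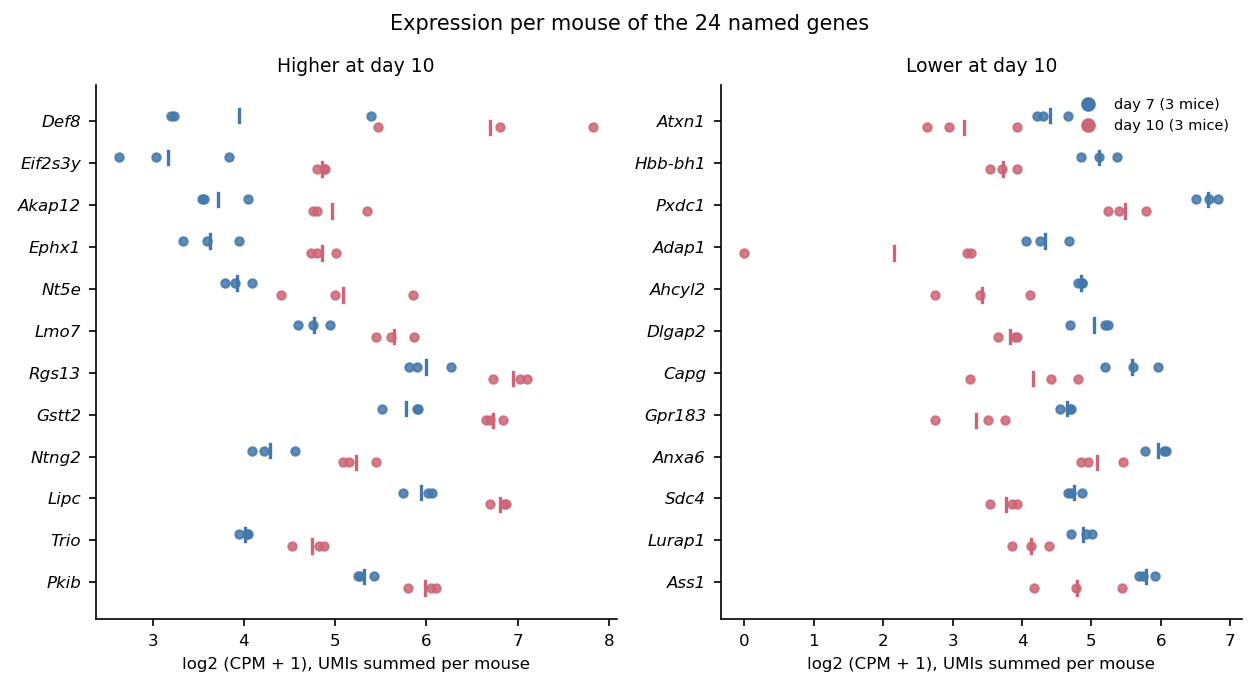
Expression of the 24 named genes as log2 (CPM + 1) of UMIs summed per mouse, with the 12 increased genes on one side and the 12 decreased genes on the other, and 1 point per mouse (3 at day 7, 3 at day 10). No gene shown overlaps between the days, since that was part of the rule, and Def8 ranges from 8.19 to 226 CPM over the 6 mice.

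The largest fold change was that of Def8, a protein that binds the lysosomal adaptor Plekhm1 (chr8:124150266-124194194, GRCm39, plus strand). Its level was 8.41, 8.19 and 41.1 CPM at day 7 and 43.3, 226 and 111 CPM at day 10. Day 7 mouse 3 and day 10 mouse 1 were nearly equal, so the groups were separated by a narrow margin and spread widely within. The log2 fold change was 3.07 ± 0.25 (adjusted p = 4.69e-16). That p-value rests on a spread shared among genes, with 78.3 prior degrees of freedom, and the gene's own spread was far larger: with a robust form of the same test, which lets such genes keep their own spread, the adjusted p was 0.432, and with DESeq2 it was 0.606. Without day 10 mouse 2 the log2 fold change was 1.78, the lowest of the fits that left out a mouse, and the highest of these was 4.16.

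Def8 RNA was concentrated in few cells. Of the 5107 cells, 204 had a Def8 UMI, 720 UMIs in all, and the 46 cells with 5 or more held 429 of these (59.6%), with up to 33 in a cell. The share of cells with a Def8 UMI was 1.24%, 0.963% and 3.08% at day 7 and 1.55%, 11.2% and 6.16% at day 10. On this measure day 10 mouse 1 lay within the range of the day 7 mice. Cells with a UMI held on average 1.40, 1.55 and 2.85 Def8 UMIs at day 7 and 5.63, 4.01 and 3.0 at day 10, whereas Rgs13 had 1.17 to 1.31 per such cell in all 6 mice. By light chain, with the cells of 3 mice pooled, Def8 was detected in 16 of 1193 lambda cells at day 7 (1.34%) and in 56 of 524 at day 10 (10.7%), and in 1 of 54 kappa cells at day 7 and 5 of 85 at day 10 (5.88%). In the cells for which no light chain was called, which were the most numerous, it was found in 36 of 1977 at day 7 (1.82%) and 90 of 1274 at day 10 (7.06%). These pooled shares are a description of cells, not of mice, since day 10 mouse 2 held 130 of the day 10 cells with a Def8 UMI and the other day 10 mice 8 and 13.

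In the time course, a separate experiment of the study with 9 day 7 and 8 untreated day 10 mice in 2 pools, Def8 was detected in 8.48% to 11.4% of cells in the 6 day 7 mice of the first pool (median 9.84%) and in 27.1% to 40.6% in its 5 day 10 mice (median 30.3%). In the second pool the shares were 3.94%, 10.3% and 9.75% at day 7 and 17.7%, 19.7% and 38.5% at day 10. The day 10 mice lay above all day 7 mice in both pools. Their cells had more UMIs than those of the first experiment, with medians of 4687 to 9375 per cell. The time-course log2 fold change of Def8 was 2.35 ± 0.22 (edgeR adjusted p = 5.17e-06, and 0.00058 with the robust form).

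**Figure D3:**
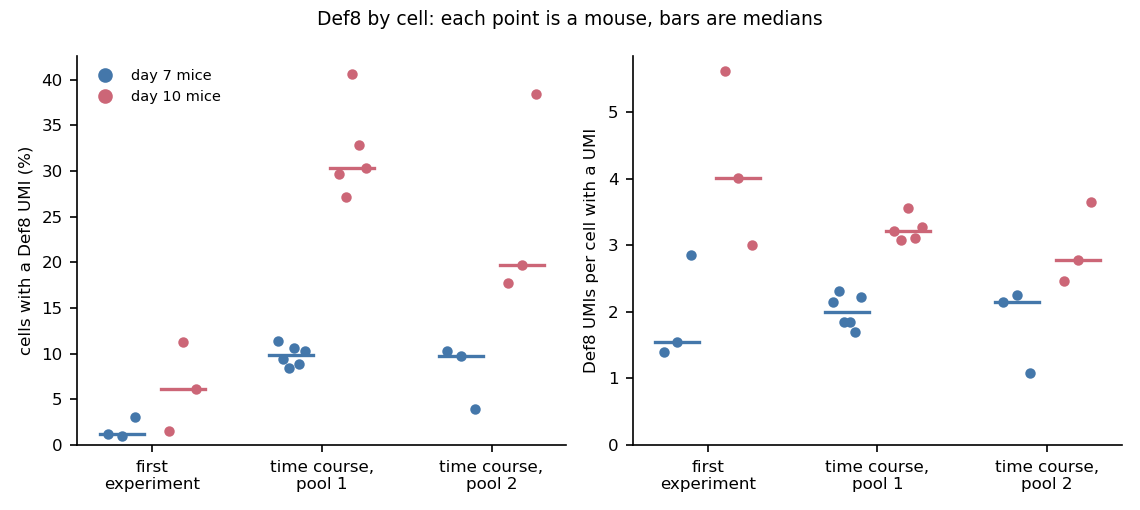
Share of cells with a Def8 UMI (percent) and mean Def8 UMIs per cell with one, in the first experiment and in both time-course pools, with 1 point per mouse and bars at the medians. In the first experiment a day 10 mouse lies at 1.55%, within the day 7 range of 0.963% to 3.08%, while in both time-course pools the groups are separate.

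The 12 most decreased genes included the receptor Gpr183, the actin-capping protein Capg, the membrane-binding protein Anxa6 and the globin Hbb-bh1. Pxdc1, a phox-homology domain protein (chr13:34811817-34837469, GRCm39, minus strand), had the smallest p of the decreased genes. It was at 103, 113 and 89.6 CPM at day 7 and 41.4, 36.9 and 54.1 CPM at day 10, with no overlap (log2 fold change -1.35 ± 0.14, adjusted p = 1.05e-11). It was detected in 17.0%, 17.9% and 16.6% of cells at day 7 and in 7.38%, 6.31% and 7.11% at day 10.

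Hbb-bh1, a beta-like globin of the embryo, was at 40.4, 27.9 and 33.6 CPM at day 7 and 10.6, 12.2 and 14.2 CPM at day 10 (log2 fold change -1.52 ± 0.22, adjusted p = 1.28e-06). Markers of red blood cells and platelets summed to 35.2 to 39.4 CPM of all UMIs at day 7 and 26.8 to 34.3 at day 10, with Hba-a1 at 0 in every mouse. Hbb-bt, another globin and the only member tested, was at -0.26 (edgeR adjusted p = 0.725), with all day 10 mice below all day 7 mice. In the time course it was at -0.42 and did not pass. Pxdc1 and Hbb-bh1, together with Dlgap2, Gstt2 and Rgs13, were the genes named here that passed in every alternative in which they could be tested.

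Gpr183, also called EBI2, a receptor for oxysterols that draws B cells toward the outer follicle, was at 24.8, 25.0 and 22.4 CPM at day 7 and 12.5, 10.4 and 5.69 CPM at day 10 (log2 fold change -1.19 ± 0.25, adjusted p = 0.00135). Capg was at 61.3, 35.6 and 47.4 CPM against 26.9, 20.4 and 8.54 CPM (-1.21 ± 0.19, adjusted p = 9.32e-06). Both genes were lowest in day 10 mouse 3, the shallowest library. Anxa6 was at 53.7, 65.0 and 66.6 CPM against 29.8, 27.8 and 42.7 CPM (-1.03 ± 0.16, adjusted p = 3.81e-06). With day 10 mouse 2 left out the values were -1.16 for Gpr183 (adjusted p = 0.202), -1.13 for Capg (0.0567) and -0.88 for Anxa6 (0.0541).

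Atxn1, a nuclear protein that binds transcriptional repressors, was at 24.4, 18.8 and 17.6 CPM at day 7 and 6.73, 5.21 and 14.2 CPM at day 10 (log2 fold change -1.64 ± 0.30, adjusted p = 0.000162). Adap1, an Arf GTPase-activating protein, had no UMI in day 10 mouse 3, and was at 15.6, 24.6 and 18.1 CPM at day 7 and 8.66 and 8.25 CPM in the other day 10 mice (-1.34 ± 0.30, adjusted p = 0.00388). Ahcyl2, related to the enzyme that breaks down S-adenosylhomocysteine, was at 28.0, 27.0 and 28.3 CPM against 16.4, 9.56 and 5.69 CPM (-1.31 ± 0.24, adjusted p = 0.000168). In each of these genes the day 10 mice spread over a wider relative range than the day 7 mice. Their values rested on few UMIs: 7, 12 and 5 of Atxn1, 9, 19 and 0 of Adap1 and 17, 22 and 2 of Ahcyl2 in the day 10 mice. Leaving out day 10 mouse 2, they were at -1.24 for Atxn1 (adjusted p = 0.269), -1.56 for Adap1 (0.174) and -1.02 for Ahcyl2 (0.251), and Adap1 was at -1.14 (0.0687) without day 7 mouse 2.

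Dlgap2, a scaffold known from synapses, was at 24.8, 35.6 and 36.8 CPM at day 7 and 11.5, 13.9 and 14.2 CPM at day 10 (log2 fold change -1.26 ± 0.22, adjusted p = 0.000107). Sdc4, a heparan sulfate proteoglycan of the cell surface, was at 24.4, 25.0 and 28.3 CPM against 10.6, 13.5 and 14.2 CPM (-1.01 ± 0.23, adjusted p = 0.00525). Ass1, the enzyme that condenses citrulline with aspartate, was at 52.5, 50.6 and 59.7 CPM against 42.3, 26.5 and 17.1 CPM (-0.84 ± 0.16, adjusted p = 0.000638). In Ass1 the spread of the day 10 mice was the widest of these 3 genes. Lurap1, an adaptor protein, went from 31.2, 25.0 and 29.3 CPM to 13.5, 16.5 and 19.9 CPM (-0.84 ± 0.21, adjusted p = 0.019). In the absence of day 10 mouse 2, Sdc4 was at -1.15 (adjusted p = 0.174), Ass1 at -0.59 (0.455) and Lurap1 at -0.91 (0.323). Without day 10 mouse 1 Sdc4 was at -0.92 (0.0777) and Lurap1 at -0.75 (0.164), and Lurap1 was at -0.76 (0.157) without day 7 mouse 1. In G0-G1 cells Ass1 was at -0.41 (0.819), and in cells with no UMI of other cells' markers, Cst3 left out, Lurap1 was at -0.51 (0.597).

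Genes of the actin cytoskeleton and of cell migration had 3 members that passed of 20 tested, all lower, where 0.559% of all genes passed as lower. The list's median log2 fold change was -0.13 against 0.00 for all genes, and none of the 20 members had a value above zero. In 13 members all day 10 mice lay below all day 7 mice, as in 590 of all 8768 genes (6.73%). In the time course 3 of these 20 passed, where 2.63% of all genes passed there, and the median was -0.10. The list was compared with all genes by its counts and median only, and many of its members are abundant transcripts with small errors.

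Vim, the intermediate filament vimentin (chr2:13578738-13587639, GRCm39, plus strand), was at 403, 384 and 426 CPM at day 7 and 243, 259 and 316 CPM at day 10, with no overlap (log2 fold change -0.62 ± 0.08, adjusted p = 4.29e-08). A Vim UMI was found in 46.1%, 41.3% and 47.9% of cells at day 7 and in 32.2%, 32.8% and 38.9% at day 10. Tmsb4x, thymosin beta 4, which binds actin monomers, was at 6558, 6608 and 6313 CPM against 5488, 5503 and 5500 CPM, a small but uniform difference (-0.24 ± 0.05, adjusted p = 0.00151, and -0.24 with 0.0974 without day 10 mouse 2). In the few kappa cells alone Vim was at -0.12 (adjusted p = 0.931) and Tmsb4x at -0.04 (0.952). Capg, described above, was the third member that passed. The other 17 tested members did not pass, with log2 fold changes between -1.09 and -0.04.

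Memory precursor and quiescence genes had the most calls of the lists, 4 of 13 tested where 1.15% of all genes passed, and these went in both directions. None of the 4 calls was kept without day 10 mouse 2. Nt5e rose, as described, and Zbtb20, a repressor that plasma and memory B cells use, was at 207, 266 and 232 CPM at day 7 and 265, 298 and 319 CPM at day 10, with overlapping mice (log2 fold change 0.31 ± 0.09, adjusted p = 0.0472). Gpr183 fell, and so did Klf2, a factor that keeps lymphocytes quiescent and recirculating, from 55.7, 45.3 and 47.4 CPM to 40.4, 23.9 and 42.7 CPM (-0.70 ± 0.17, adjusted p = 0.00995). The median of the list was -0.36. Klf2 was at -0.59 without day 7 mouse 1 (adjusted p = 0.157) and at -0.28 without day 10 mouse 2 (0.898), Nt5e and Gpr183 lost their calls without that mouse as given above, and Zbtb20 passed without day 7 mouse 2 but not without any other mouse, at 0.22 to 0.37 (adjusted p = 0.0566 to 0.572). With the UMIs of every mouse thinned to those of the shallowest Klf2 was at -0.19 (0.973). In the time course 3 of the 13 genes of this list passed, where 2.63% of all genes passed there, and the median was -0.06.

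Among light zone genes, 2 of 19 passed, both lower, where 0.559% of all genes did, and the median was -0.04. They were Gpr183 and Lmo2, a transcriptional cofactor of GC B cells, which was at 70.5, 78.5 and 67.2 CPM at day 7 and 56.7, 46.1 and 56.9 CPM at day 10 (log2 fold change -0.51 ± 0.14, adjusted p = 0.0304). Lmo2 was at -0.34 without day 10 mouse 2 (adjusted p = 0.771), -0.53 without day 7 mouse 1 (0.0819), -0.46 without day 7 mouse 2 (0.129) and -0.33 with UMIs thinned to the shallowest mouse (0.918). Of 12 dark zone genes none passed (median 0.03), and of 19 GC identity genes only Rgs13 did (median 0.03). Of the 12 zone positioning genes, Rgs13 passed as higher and Gpr183 as lower, where 0.593% of all genes passed as higher and 0.559% as lower. Foxp1, a factor that dark zone cells carry, was at a log2 fold change of 0.03 ± 0.08 (adjusted p = 0.951). In the time course 2 of the 19 light zone genes passed, where 2.63% of all genes passed there, and the median was 0.09. Neither Gpr183 (-0.03, edgeR adjusted p = 0.969) nor Lmo2 (-0.18, 0.481) passed there.

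Genes of the plasma cell programme had 2 lower and no higher calls among 14 tested, where 0.559% of all genes passed as lower, and a median of -0.12. Both encode proteins of the endoplasmic reticulum. Hsp90b1, a chaperone for surface and secreted proteins, was at 282, 243 and 252 CPM at day 7 and 189, 209 and 171 CPM at day 10 (log2 fold change -0.40 ± 0.09, adjusted p = 0.00246), and Edem1, which routes misfolded glycoproteins to degradation, was at 96.5, 102 and 93.3 CPM against 67.3, 68.2 and 59.7 CPM (-0.54 ± 0.12, adjusted p = 0.00396). Hsp90b1 was at -0.33 without day 7 mouse 1 (adjusted p = 0.105) and -0.38 without day 10 mouse 1 (0.0696), and Edem1 at -0.57 without day 10 mouse 2 (0.172). In cells with no UMI of other cells' markers Hsp90b1 was at -0.19 (adjusted p = 0.86) and Edem1 at -0.27 (0.893), with Cst3 left out of those markers at -0.15 (0.811) and -0.42 (0.302), and in G0-G1 cells at -0.22 (0.816) and -0.18 (0.911). Few cells held much of the Hsp90b1 RNA. Those with 5 or more UMIs, up to 102 in a cell, held 47.2%, 29.1% and 30.4% of its UMIs in the day 7 mice and 16.3%, 15.2% and 0% in the day 10 mice. The share of cells with an Hsp90b1 UMI overlapped, at 24.6%, 23.3% and 27.3% against 21.7%, 25.2% and 23.2%. The plasma cell markers summed to 1204 to 1358 CPM of all UMIs at day 7 and 1185 to 1276 at day 10, and none of the 4 tested passed. This sum includes Jchain, which most cells carried, so it does not count plasma cells. In the time course none of the 14 genes of the plasma cell programme passed, and the median was -0.03. There Hsp90b1 was at -0.13 (edgeR adjusted p = 0.824) and Edem1 at -0.15 (0.365).

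B cell receptor signalling genes had 1 higher and 1 lower call among 21, where 0.593% of all genes passed as higher and 0.559% as lower, and a median of -0.05. Of the 21 members 4 had a value above zero. In 7 all day 10 mice lay below all day 7 mice, as in 6.73% of all genes, and in 1 above. Cd72, an inhibitory co-receptor, was at 149, 146 and 158 CPM at day 7 and 204, 212 and 193 CPM at day 10 (log2 fold change 0.46 ± 0.09, adjusted p = 0.000638). Ptpn6, the phosphatase SHP-1 that acts with such receptors, was at 580, 583 and 485 CPM against 442, 448 and 432 CPM (-0.31 ± 0.07, adjusted p = 0.00733). In neither gene did the mice of the days overlap. Over all genes the share that passed was 1.15%. Of 13 genes of MHC class II presentation only Ifi30, a thiol reductase of the lysosome, passed, at 869, 777 and 713 CPM against 667, 618 and 711 CPM (-0.27 ± 0.07, adjusted p = 0.0251). Of 15 genes on a joint list of immediate early genes and genes of cell dissociation only Btg1, an inhibitor of proliferation, passed. It was at 286, 289 and 245 CPM against 232, 201 and 228 CPM (-0.35 ± 0.09, adjusted p = 0.0151). In the time course 6 of these 15 passed, where 2.63% of all genes passed there, with a median of -0.19. With day 10 mouse 2 of the first experiment left out the values were 0.42 for Cd72 (adjusted p = 0.164), -0.32 for Ptpn6 (0.2), -0.20 for Ifi30 (0.652) and -0.25 for Btg1 (0.683). Without day 7 mouse 1 Ptpn6 was at -0.27 (0.142), Ifi30 at -0.18 (0.499) and Btg1 at -0.31 (0.165), without day 7 mouse 2 Ptpn6 at -0.27 (0.0623) and Btg1 at -0.32 (0.0609), and without day 10 mouse 1 Ptpn6 at -0.31 (0.0841) and Ifi30 at -0.28 (0.12). Thinned to the shallowest mouse Ptpn6 was at -0.17 (0.873) and Btg1 at -0.23 (0.863), and in lambda cells Ptpn6 was at -0.20 (0.551).

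No member passed in the lists on division, biosynthesis and metabolism, and with 1.15% of all genes passing, a count of 0 in lists of this length does not set them apart from other genes. These included 24 S phase genes (median 0.05), 24 G2-M genes (0.03), 20 genes of ribosome biogenesis and the Myc response (0.14, with 18 of 20 above zero), 30 ribosomal proteins (-0.02), 28 nuclear genes of oxidative phosphorylation (-0.04) and 15 of glycolysis (-0.11). Mki67, a marker of dividing cells, was at a log2 fold change of 0.11 ± 0.07 (adjusted p = 0.676), Top2a, a topoisomerase of dividing cells, at 0.07 ± 0.08 (0.86) and Mcm3, a subunit of the replicative helicase, at 0.03 ± 0.09 (0.951). Npm1, a nucleolar chaperone, was at 0.07 ± 0.07 (adjusted p = 0.84) and Ptma, an abundant nuclear protein, at 0.06 ± 0.06 (0.844). Of 19 tested genes that process the lesions of somatic hypermutation none passed (median 0.02): Hmces, a shield of abasic sites, was at 0.02 ± 0.07 (adjusted p = 0.967) and Neil1, a glycosylase, at 0.08 ± 0.08 (0.822). In the time course 1 of these 19 passed, where 2.63% of all genes passed there, and the median was -0.01.

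The lists of responses to help and to cytokines, also short beside a share of 1.15% over all genes, held no calls in the first experiment. None of 16 genes of the CD40 and NF-kB response passed, with a median of 0.07. In 3 of the 16 all day 10 mice lay above all day 7 mice, as in 547 of all 8768 genes. In the time course, whose cells held more UMIs, 7 of the 16 passed, where 2.63% of all genes passed there, and the median was 0.21. The member Nfkbia was at 0.35 ± 0.10 (adjusted p = 0.061) in the first experiment and 0.34 ± 0.06 (0.00286) in the time course. Its difference between the experiments was -0.0072 ± 0.14. Counts at a threshold do not test whether the experiments differed. None of 17 interferon response genes passed, although 13 lay above zero and the median was 0.24 (0.34 in the time course, also without a call). Among the 12 tested genes of the interleukin-4 and interleukin-21 response, the 12 of the Bcl-2 family and the 15 of the p53 response none passed.

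**Figure D4:**
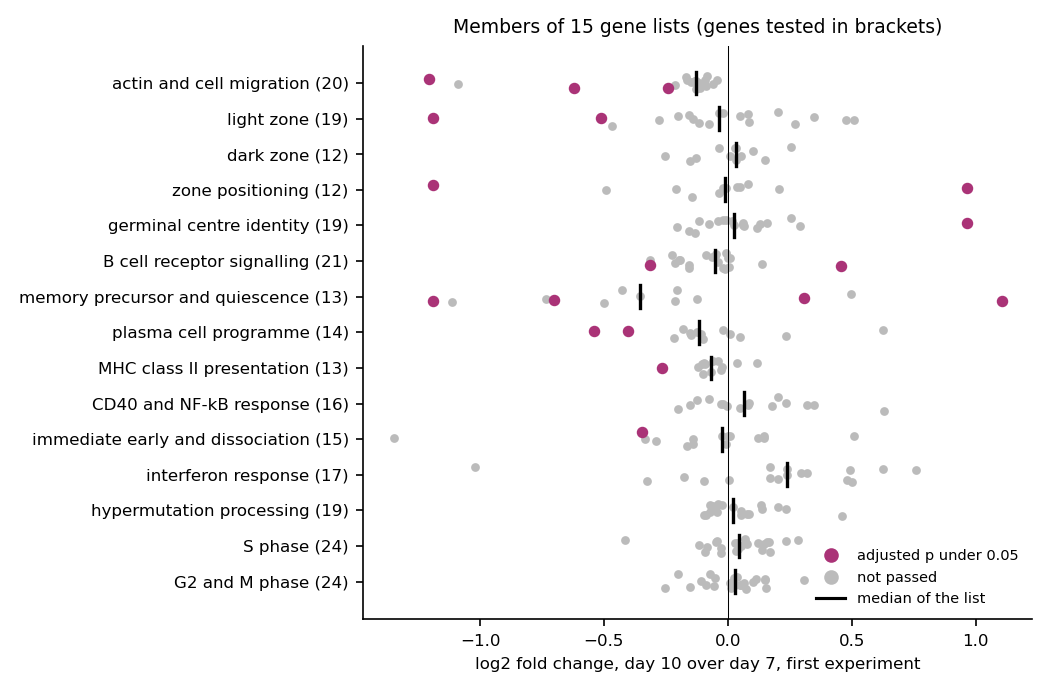
Log2 fold changes (day 10 over day 7) of the tested members of 15 gene lists, with 1 point per gene, coloured where the adjusted p was under 0.05, and a bar at each list's median. All 20 members of the actin and cell migration list lie below zero (median -0.13), while the dark zone, S phase and G2-M lists centre near zero without a call.

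Of the 14 myeloid markers 2 were high enough to be tested. Of these Cst3, cystatin C, passed, where 1.15% of all genes did, at 304, 380 and 325 CPM at day 7 and 239, 236 and 230 CPM at day 10 (log2 fold change -0.51 ± 0.08, adjusted p = 2.09e-05). It was detected in 43.0% to 47.2% of cells at day 7 and in 33.2% to 35.3% at day 10, while of the defining myeloid markers C1qa, S100a8 and Itgax were at 0, Cd68 had 2 to 16 UMIs per mouse, and Tyrobp, Fcer1g and Lyz2 were highest in day 10 mouse 2, as given above. Ly75, the gene that encodes DEC-205 and distinguishes the transferred populations, was at 14.4, 22.6 and 14.4 CPM at day 7 and 28.9, 24.3 and 11.4 CPM at day 10, with overlap (0.51 ± 0.22, adjusted p = 0.425). It was found in 2.90%, 4.12% and 2.85% of cells against 5.05%, 3.98% and 1.90%, on 4 to 56 UMIs per mouse.

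Some genes that passed lay close together in the genome. Within 100 kb of each other on GRCm39 there were 5 pairs of neighbours, with Gstt2 in both the Ddt and the Mif pair. The members of each pair went the same way. How often neighbours among all tested genes do so was not counted, so the number of pairs is a description only. The pairs were chosen after their values were seen. Gstt2 on chromosome 10 was flanked at 57680 bases by Ddt, an enzyme related to Mif, which was at 126, 113 and 111 CPM at day 7 and 182, 186 and 168 CPM at day 10 (log2 fold change 0.63 ± 0.10, adjusted p = 2.89e-06). Ddt was at 0.31 (adjusted p = 0.708) in cells with no UMI of other cells' markers, at 0.43 (0.0594) with Cst3 left out of those markers and at 0.45 (0.157) in G0-G1 cells. On its other side, 21929 bases away, lay Mif, a cytokine, whose mice overlapped at 510, 498 and 496 CPM against 707, 621 and 450 CPM (0.30 ± 0.08, adjusted p = 0.0189). Mif has many near-identical pseudogene copies, so its counts are uncertain, and it did not pass with the robust test (adjusted p = 0.0516) or in 5 of the 6 fits that left out a mouse (0.17 to 0.31, adjusted p = 0.0517 to 0.61, all except the one without day 10 mouse 3). It was at 0.14 (0.886) in cells with no UMI of other cells' markers and at 0.15 (0.786) in G0-G1 cells.

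On chromosome 11, Il9r, the interleukin-9 receptor chain, and Snrnp25, a protein of the minor spliceosome, lay 5133 bases apart. Il9r was at 3.2, 1.93 and 9.60 CPM at day 7 and 18.3, 15.6 and 8.54 CPM at day 10, with overlap (log2 fold change 1.73 ± 0.35, adjusted p = 0.00074), and Snrnp25 at 149, 158 and 178 CPM against 221, 210 and 245 CPM, without (0.44 ± 0.09, adjusted p = 0.000947). Both also passed in the time course, at 1.62 ± 0.18 and 0.35 ± 0.09. On chromosome 1, Lefty1, a TGF-beta family ligand that lay 37804 bases from Ephx1, was at 22.8, 34.2 and 20.3 CPM against 45.2, 46.9 and 19.9 CPM, with overlap (0.76 ± 0.18, adjusted p = 0.00834). Without day 10 mouse 2 Il9r was at 1.74 (adjusted p = 0.166) and Lefty1 at 0.59 (0.652), and Lefty1 was at 0.66 (0.104), 0.63 (0.0799) and 0.73 (0.0924) without day 7 mouse 1, day 7 mouse 3 and day 10 mouse 1, and at 0.34 (0.957) with UMIs thinned to the shallowest mouse.

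The remaining pair was Slpi and Sdc4 on chromosome 2, 35010 bases apart. Slpi, a secreted protease inhibitor, was at 299, 83.8 and 96.5 CPM at day 7 and 92.3, 79.1 and 42.7 CPM at day 10, and its fold change of -1.07 on the log2 scale (adjusted p = 0.000407) came from day 7 mouse 1, in which 1 cell held 300 of 747 Slpi UMIs. Without that mouse the value was -0.19 (adjusted p = 0.83), in G0-G1 cells it was -0.12 (0.941), without day 10 mouse 2 it was -1.07 (adjusted p = 0.2), and the adjusted p with the robust test was 0.791.

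The calls of the named genes also depended on which cells and which test were used. Of the 45 genes described here that passed, 28 did not pass with DESeq2 (Adap1, Ahcyl2, Ass1, Atxn1, Btg1, Ddx3y, Def8, Edem1, Ephx1, Gnaz, Gpr183, Hsp90b1, Ifi30, Il9r, Klf2, Lefty1, Lmo2, Lurap1, Mif, Nt5e, Ntng2, Pkib, Ptpn6, Sdc4, Slpi, Tox2, Trio and Zbtb20). With all 9 mice of the pool in 1 fit 14 did not (Btg1, Edem1, Gpr183, Hsp90b1, Ifi30, Klf2, Lefty1, Lmo2, Mif, Nt5e, Ptpn6, Slpi, Trio and Zbtb20). With UMIs thinned to the shallowest mouse 20 of the 32 that could be tested did not (Ahcyl2, Akap12, Anxa6, Btg1, Cd72, Cst3, Edem1, Ifi30, Klf2, Lefty1, Lipc, Lmo2, Lmo7, Lurap1, Mif, Ntng2, Pkib, Ptpn6, Snrnp25 and Zbtb20). Trio did not pass with no filter on low counts (0.78, adjusted p = 0.0573), nor did Zbtb20 with cells assigned by their highest hashtag (0.29, 0.0932).

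Subsets of cells, which hold fewer UMIs, gave fewer calls as well. Among lambda cells 17 of 39 tested genes did not pass (Adap1, Akap12, Ass1, Btg1, Ephx1, Gpr183, Lefty1, Lmo2, Lmo7, Lurap1, Mif, Nt5e, Ntng2, Pkib, Ptpn6, Trio and Zbtb20). Among G0-G1 cells 24 of 41 did not (Ahcyl2, Akap12, Ass1, Btg1, Ddt, Edem1, Ephx1, Gnaz, Hsp90b1, Ifi30, Il9r, Klf2, Lefty1, Lmo2, Lurap1, Mif, Nt5e, Ntng2, Ptpn6, Sdc4, Slpi, Snrnp25, Trio and Zbtb20). Among cells with no UMI of other cells' markers 22 of 39 did not (Ahcyl2, Akap12, Ass1, Btg1, Capg, Ddt, Edem1, Eif2s3y, Hsp90b1, Ifi30, Klf2, Lefty1, Lmo2, Lurap1, Mif, Nt5e, Pkib, Sdc4, Snrnp25, Tmsb4x, Trio and Zbtb20). When Cst3 was not counted among those markers 16 of 45 did not (Atxn1, Btg1, Cd72, Ddt, Ddx3y, Edem1, Hsp90b1, Klf2, Lefty1, Lurap1, Mif, Pkib, Slpi, Snrnp25, Trio and Zbtb20). In the few kappa cells none of the 10 genes that could be tested passed.

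The time course allowed a like comparison in 17 other mice, 9 at day 7 and 8 untreated at day 10, whose cells held more UMIs. Read counts were not compared, and the study's methods name different versions of the library kit without giving that of each pool. The study's legend for the time-course mutation counts describes DEC-205+ cells, whereas a minority of the cells transferred in the first experiment expressed DEC-205. The sorted cells may therefore differ between the experiments, and the doxycycline status of the time-course mice is not in their lists. In the time course 256 of 9750 genes passed (2.63%). Of the 101 genes that passed in the first experiment 99 were tested in both, and 93 of these (93.9%) had the same direction, against 59.1% of the 8755 genes tested in both. The genes that passed in both experiments numbered 31, 20 higher and 11 lower and all in the same direction, which is 31.3% of the 99 and 13.2% of the 235 time-course calls that were tested in both, where 2.68% of all genes tested in both passed in the time course. Of those 235 genes, 207 (88.1%) had the same direction in the first experiment. The experiments shared no mice, and the genes of the first were selected on their values there.

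The size of the fold changes depended on the experiment in which the genes were selected. The median absolute log2 fold change of the 99 genes called in the first experiment was 0.63 there and 0.25 in the time course. For the 235 genes called in the time course it was 0.34 there and 0.22 in the first experiment. Across 6771 genes with an average log2 CPM above 4, Pearson's r between the fold changes was 0.41, given as a description across genes that are not independent of each other.

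Of the 24 genes named first, 23 were tested in the time course and 10 passed. Lmo7 had a time-course log2 fold change of 0.97 ± 0.14 (adjusted p = 0.000795), close to its first value of 1.01. Rgs13 was at 0.73 ± 0.13 (0.00333), Nt5e at 0.69 ± 0.10 (0.000638), Ntng2 at 0.67 ± 0.10 (0.000638), Akap12 at 0.64 ± 0.16 (0.0301, and 0.0791 with the robust form) and Lipc at 0.42 ± 0.10 (0.0308). Among decreased genes Hbb-bh1 was at -0.85 ± 0.18 (0.00918), Pxdc1 at -0.72 ± 0.15 (0.00877) and Anxa6 at -0.43 ± 0.11 (0.0322). Vim, at -0.44 ± 0.08 (adjusted p = 0.00364), and Cst3, at -0.40 ± 0.07 (0.00366), also passed in both. So did Zbtb20, at 0.28 (0.00453). Of the 24, the increased Gstt2 (0.53, 0.055), Ephx1 (0.60, 0.105), Pkib (0.37, 0.117) and Trio (0.26, 0.388) did not pass. Nor did the decreased Atxn1 (-0.43, 0.174), Adap1 (-0.52, 0.0727) and Ass1 (-0.25, 0.358). Klf2 (-0.62, 0.132), Tmsb4x (-0.13, 0.253), Cd72 (0.26, 0.162), Ptpn6 (-0.17, 0.0804), Ifi30 (-0.05, 0.81) and Btg1 (-0.19, 0.172) did not pass either.

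Low-abundance genes that passed in both experiments included Tox2, an HMG-box nuclear factor, and Gnaz, a G protein subunit, both chosen after their values were seen. Tox2 was at 6.81, 4.82 and 10.7 CPM at day 7 and 14.4, 22.2 and 25.6 CPM at day 10 (log2 fold change 1.46 ± 0.28, adjusted p = 0.000461), with 1.44 ± 0.22 in the time course. Gnaz was at 8.01, 6.74 and 12.8 CPM against 21.2, 25.6 and 11.4 CPM, with overlap (1.33 ± 0.26, adjusted p = 0.000614), and 1.26 ± 0.20 in the time course. Leaving out day 10 mouse 2, Tox2 was at 1.25 (adjusted p = 0.317) and Gnaz at 1.04 (0.439).

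Several of the most decreased genes of the first experiment showed little in the time course. Gpr183 was there at -0.03 ± 0.19, Dlgap2 at -0.06, Ahcyl2 at -0.13, Capg at 0.08 ± 0.12, Sdc4 at 0.15 and Lurap1 at 0.03, none of which passed. A test of the difference between the experiments was made in 1 fit over all 23 mice. None of 10244 genes passed it (0%, edgeR), 433 had an unadjusted p under 0.05, and with the robust form none passed either. The smallest adjusted p among the genes called in the first experiment was 0.573, for Ahcyl2, with a difference of -1.20 ± 0.25, and that of Capg was 0.841, with -1.35 ± 0.34. For Gpr183 the difference was -1.25 ± 0.53. A p that misses the threshold does not show that the experiments were alike.

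With only the second time-course pool as reference 1 gene passed this test, Eif2s3y, whose difference was 1.86 ± 0.26 (edgeR adjusted p = 0.00238). Eif2s3y and Ddx3y were too low in the time course for its own filter.

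**Figure D5:**
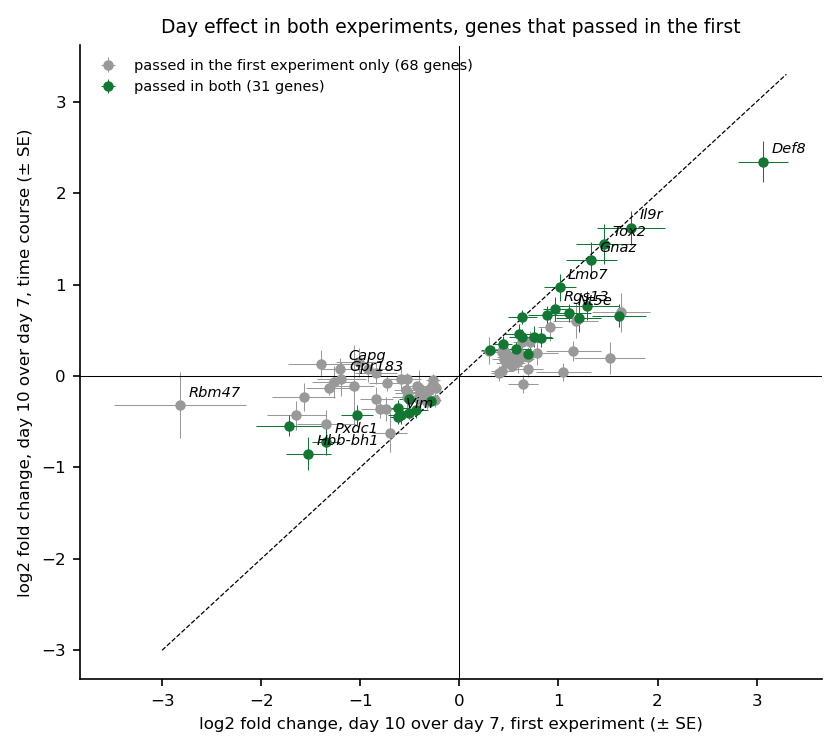
Log2 fold changes (day 10 over day 7, ± SE) of the 99 genes that passed in the first experiment and were tested in the time course, with the first experiment on the x axis and the time course on the y axis. Most points lie in the quadrants of equal sign (93 of 99), and 31 passed in both, with the genes selected on the values of the x axis.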

How the data were processed

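The deposited values were raw UMI counts for each cell over genes and hashtags, which the authors obtained with Cell Ranger on mm39 without normalization, and UMI counts of assembled contigs. The submitters' processing notes name Cell Ranger 6.0.1, whereas the deposited file headers name 7.1.0 for the first experiment and 8.0.1 for the time-course pools. Cells were given to mice by the first hashtag in the authors' list (by both hashtags in the time course) with HTODemux in Seurat 5.3.0 (positive quantile 0.99). Of 13801 cells in the first pool 2200 carried hashtags of more than 1 mouse and were left out. Doublets within a mouse were not searched for. Counts were added up over the kept cells of a mouse, and the sums were compared with the quasi-likelihood test of edgeR 4.0.16 under R 4.3.3, after filterByExpr, TMM scaling and estimateDisp, with pool as a covariate in the time course. SEs were taken as the log2 fold change over the square root of F. Phases came from CellCycleScoring, and light-chain classes from productive contigs. The code was tested on simulated counts with known changes. Genes of the heavy-chain locus are not reported here.

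The genes named were, per direction, the 12 largest fold changes among those that passed with an average log2 CPM above 4 and no overlap between mice, then up to 4 that passed from each gene list (or 2 of the highest mean CPM where none did), and Ly75. The members, lists and rule were chosen with earlier results of these data known. Positions are from GENCODE on GRCm39, the build of the files. Alternatives were another scaling (RLE), no filter on low counts, DESeq2 1.42.0, all 9 mice of the pool in 1 fit, another assignment of hashtags, no filter on cells, equal UMIs per mouse, subsets of cells and leaving out each mouse. A robust shrinkage of the spread, and a subset of cells without markers of other cells that did not count Cst3, were added after seeing the data.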

Additional observations from a re-analysis of the deposited data

Results flagged for a closer look

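Of 46 sets of a gene and a group of mice of the first time-course pool (6 at day 7 or 5 at day 10), 2 held a mouse far from the others, while chance gives about 1 in 20. Among the 6 day 7 mice of the first time-course pool, 1 was at 32.4 CPM of Akap12, with the others between 17.5 and 22.3 CPM. In the same group 1 mouse was at 42 CPM of Trio, with the others between 18 and 23.6 CPM. In the first pool 533 cells carried only a hashtag that is in no row of its list of mice, and they were not analysed further.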

How the results depend on the processing

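The 101 calls of the first experiment became 24 with DESeq2, 59 with all 9 mice in 1 fit, 20 with the UMIs of each mouse thinned to those of the lowest, and 99 with robust shrinkage, which kept 96 of the 101. Among subsets of cells there were 45 calls in 1717 lambda cells, 1 in 139 kappa cells (as few as 10 in a mouse), 36 in 2708 G0-G1 cells, 28 in 2184 cells with no UMI of other cells' markers and 54 in 3650 cells when Cst3 was not counted among these. These subsets hold fewer cells. Leaving out each mouse gave 25 to 128 calls, whereas RLE scaling, no filter on low counts or on cells and the other hashtag assignment gave 100 to 120. Every one of the 101 genes that could be tested kept its direction in all of these but the kappa cells (12 of 18). The genes were chosen on these same mice and cells, so a kept direction was largely set in advance.

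In kappa cells Ifi30 was at 0.53, Zbtb20 at -0.67, Cd72 at -0.65, Snrnp25 at -0.32, Foxp1 at -0.76, Mcm3 at -0.19, Hmces at -0.29 and Neil1 at -0.47. Ptma was at -0.042 and Npm1 at -0.060 in cells without other markers, Foxp1 at -0.014 and Mcm3 at -0.034 with Cst3 not counted, and Top2a at -0.29 in G0-G1 cells. Without each mouse in turn, Mcm3 ranged from -0.058 to 0.10, Npm1 from -0.0044 to 0.14, Hmces from -0.00070 to 0.056, Top2a from -0.11 to 0.15 and Foxp1 from -0.051 to 0.11. The cause was not tested.

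In the time course, the first pool alone gave 141 calls, and the second alone 0 with edgeR (874 genes at an unadjusted p under 0.05), and robust shrinkage of both gave 250. The difference between experiments had 0 calls in every fit except that against the second pool alone, with 1. The lambda difference lay between -11.5 and -9.56 percentage points and the G0-G1 difference between -7.55 and -3.43 with each mouse left out. In the same fits the S difference lay between 1.72 and 5.37 and the G2-M difference between 1.62 and 3.54. No paired analysis was possible because replicate numbers of the groups name different mice. Depth limits genes of about 10 CPM to few UMIs in day 10 mouse 3.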
